A study of Mus musculus with 30 samples.

Results

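The mouse genome carries 7 genes of the Mu class of cytosolic glutathione S-transferases, Gstm1, Gstm2, Gstm3, Gstm4, Gstm5, Gstm6, and Gstm7, and their transcripts were measured in livers of mice given the triterpenoid CDDO-Me (bardoxolone methyl) or vehicle. The 7 genes were chosen by name from the 55335 genes of the count table, and all 7 were found and passed the expression filter in every comparison. RNA-seq libraries were made from 30 livers, with 5 mice in each of 6 groups, formed by 3 genotypes and 2 treatments. All mice were male, 7 to 10 weeks old, and of an albino strain, B6(Cg)-Tyr c-2J/J, whose background is C57BL/6J. Wild-type mice carried neither mutation, C151S mice were homozygous for the C151S knock-in, which was made with CRISPR-Cas9 and replaces a sensor cysteine of KEAP1 by serine, and Nrf2-knockout mice were homozygous for a disrupted Nrf2 allele. Wild-type mice were obtained from the Jackson Laboratory, whereas the mutant mice came from matings of homozygous animals. Differences of genotype and of colony therefore cannot be told apart. Each mouse received by mouth either CDDO-Me at 30 µmol/kg or the vehicle of 10% DMSO, 10% Cremophor-EL, and PBS, and the liver was taken 24 hours later. Both mutations are present in every cell of the animal, and whole liver was sequenced, so that fewer cells of a type and less transcript per cell cannot be told apart.

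Glutathione S-transferases join the thiol of glutathione to electrophilic compounds, and the conjugates are then exported from hepatocytes and trimmed to mercapturates. The Mu class enzymes form dimers in the cytosol and act on epoxides, quinones, and products of lipid peroxidation. In unstressed cells KEAP1 presents the transcription factor NRF2 for degradation, and electrophiles such as CDDO-Me modify cysteines of KEAP1, so that NRF2 accumulates and binds antioxidant response elements near its target genes, among which Gstm1 is a common marker in liver.

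The 7 genes lie next to one another on chromosome 3 of GRCm38. Gstm5 (ENSMUSG00000004032.10, 107895821 to 107898686) is on the plus strand at the low end, and the other 6 are on the minus strand. They follow in the order Gstm7 (ENSMUSG00000004035.12, 107926334 to 107931817), Gstm6 (ENSMUSG00000068762.11, 107938847 to 107943749), Gstm3 (ENSMUSG00000004038.9, 107963696 to 107969283), Gstm2 (ENSMUSG00000040562.12, 107981702 to 107986453), Gstm1 (ENSMUSG00000058135.12, 108012255 to 108017973), and Gstm4 (ENSMUSG00000027890.17, 108040408 to 108044894). The coding sequence of the principal transcript is 672 bases long in Gstm5 and 654 bases long in the others. Gstm1 and Gstm3 were the closest pair, with 89.4% identical coding bases, and Gstm3 and Gstm5 the most distant, with 69.9%. Only reads with 1 position in the genome were counted, and the share of 50-base stretches of a transcript that also occur in another annotated transcript was 28.8% in Gstm3, 23.1% in Gstm1, 14.4% in Gstm5, 11.8% in Gstm6, 9.36% in Gstm2, and 0% in Gstm4 and Gstm7. Gstm1 shared most such stretches with the pseudogene Gstm2-ps1 and Gstm3 with the pseudogene Gm8834, and the pair shared some with each other. A read pair that lies wholly in such stretches can have several positions and was then not counted, and how many pairs were lost in this way was not tested. The stretches of Gstm5 are shared with 4933431E20Rik, an RNA on the opposite strand of the same locus, and were separated by strand-specific counting.

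The sequences before the first listed start sites of Gstm1 to Gstm4, the 4 genes that were higher in treated wild-type livers, and of Gstm5, which was not, are given here to show the letters in which the core of the antioxidant response element, TGACNNNGC, was looked for. They are from RefSeq on GRCm38.p6, run 5′ to 3′ on the strand of the gene, and stop before the first transcribed base annotated by GENCODE. The windows searched were of 250 bases, so that those of Gstm2 to Gstm5 reached 33 to 109 bases farther than printed, and the other windows are not printed. The stretch of Gstm1 is chr3:108017974-108018223, that of Gstm2 is chr3:107986454-107986670, that of Gstm3 is chr3:107969284-107969424, that of Gstm4 is chr3:108044895-108045109, and that of Gstm5 is chr3:107895604-107895820. Capitals mark a match to the core.
Gstm1: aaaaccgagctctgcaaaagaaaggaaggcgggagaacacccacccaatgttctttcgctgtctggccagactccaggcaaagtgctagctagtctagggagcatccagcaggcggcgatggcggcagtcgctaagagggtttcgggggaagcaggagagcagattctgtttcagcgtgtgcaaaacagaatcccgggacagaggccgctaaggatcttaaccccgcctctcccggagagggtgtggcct
Gstm2: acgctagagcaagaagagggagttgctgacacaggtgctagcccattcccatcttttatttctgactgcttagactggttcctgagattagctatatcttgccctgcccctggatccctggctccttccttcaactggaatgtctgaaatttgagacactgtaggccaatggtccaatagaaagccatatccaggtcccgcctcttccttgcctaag
Gstm3: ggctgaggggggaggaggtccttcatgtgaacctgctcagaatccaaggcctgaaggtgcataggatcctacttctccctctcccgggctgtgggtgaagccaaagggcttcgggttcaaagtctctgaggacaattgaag
Gstm4: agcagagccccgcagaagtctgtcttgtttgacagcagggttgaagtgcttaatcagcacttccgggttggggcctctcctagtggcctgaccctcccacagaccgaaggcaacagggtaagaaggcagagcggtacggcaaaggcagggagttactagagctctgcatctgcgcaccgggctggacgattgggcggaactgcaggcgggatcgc
Gstm5: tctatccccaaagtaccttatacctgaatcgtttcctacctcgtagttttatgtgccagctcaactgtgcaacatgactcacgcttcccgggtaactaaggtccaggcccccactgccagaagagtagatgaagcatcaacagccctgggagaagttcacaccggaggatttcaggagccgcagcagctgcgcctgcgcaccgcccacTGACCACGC
RefSeq lists 12 windows of 250 bases before the start sites of the 7 genes, and 2 of them held the core on either strand. In Gstm5 the match TGACCACGC began 42 bases before the start site, and in Gstm7 the match TGACAAAGC lay before the second start site. Of all 32851 such windows in the RefSeq table, 10.16% held the core. The windows of Gstm1 to Gstm4 held 0 matches, which says only that these letters do not occur in them. The match in Gstm5 lies inside the annotated span of 4933431E20Rik.

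The 30 libraries held between 23667068 and 42073169 counts on genes, and levels are given as CPM, counts scaled to a common library size by edgeR's trimmed mean of M values (TMM) normalization. The Nrf2-knockout label was checked on Nfe2l2, which encodes NRF2, and its level was 22.4 to 39.8 CPM in the 10 Nrf2-knockout libraries and 47.9 to 71.0 CPM in the 10 wild-type libraries, with no overlap. A point mutation of Keap1 leaves no trace in counts, so the C151S label could not be checked, and Keap1 had 38.1 to 64.9 CPM in C151S and 48.5 to 77.5 CPM in wild-type libraries. The clock gene Arntl, singled out because earlier results of these data were known, split the libraries into a high set, with log2 CPM of 2.52 or more, and a low set, with 0.90 or less. All 10 wild-type libraries fell into the high set, and 5 of 10 C151S and 6 of 10 Nrf2-knockout libraries into the low set. Hepatocyte markers (Alb, Ttr, Apoa1, Tat, and Cps1) summed to 63700 to 150000 CPM in every library, whereas 5 cholangiocyte markers summed to at most 11.9 CPM, 5 lymphocyte markers to at most 5.78 CPM, and 5 neutrophil markers to at most 14.9 CPM, of which Ly6g had 3 counts or fewer in all 30 libraries. The median share of reads with several positions was 15.0% in wild-type livers given vehicle, 14.5% in those given CDDO-Me, and 11.7% to 12.6% in the mutant groups. Whether the differences in clock genes or in such reads enter the differences between genotypes was not tested. Values within an Arntl set are given below as differences of means without a test, and wild-type mice can be compared only within the high set.

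Gstm1 was by far the most abundant of the 7 transcripts in every group. In vehicle-treated wild-type livers its level per kb of exon was 1363 ± 301 CPM per kb (SD, n = 5), which was 81.1% ± 0.5 of the summed level of the 7 genes. Gstm3 followed with 114 ± 55.6 CPM per kb. Gstm6, at 57.2 ± 7.53, and Gstm4, at 57.0 ± 5.40 CPM per kb, lay within their SDs of each other, as did Gstm2, at 44.2 ± 8.80, and Gstm7, at 39.9 ± 6.35 CPM per kb. The exon length used, the union over transcripts, was 1989 bases for Gstm6 and 1679 for Gstm2, against principal transcripts of 1153 and 1064 bases. For Gstm4 both lengths were 1707 bases. The order, near-ties, and shares per kb therefore depend on the length chosen, and other lengths were not tested. Gstm5, an enzyme best known from testis and brain, was lowest with 7.37 ± 0.897 CPM per kb. In Nrf2-knockout livers given vehicle, the order was Gstm1, Gstm7, Gstm6, Gstm3, Gstm2, Gstm4, and Gstm5, and the levels of Gstm6, Gstm3, Gstm2, and Gstm4, from 33.4 to 16.6 CPM per kb, each lay within the larger SD of the next. Gstm1 made up 58.3% ± 3.27 there and Gstm7 13.3% ± 1.74, compared with 2.41% ± 0.262 for Gstm7 in vehicle-treated wild-type livers.

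The count-based total of the 7 genes ranged from 2038 to 3387 CPM, with a median of 2373, in vehicle-treated wild-type livers and from 10430 to 16530 CPM, with a median of 12380, after CDDO-Me. In C151S livers it was 1467 to 1976 CPM with vehicle and 990.8 to 2283 CPM with CDDO-Me. In Nrf2-knockout livers it was 460.7 to 656.9 CPM with vehicle and 459.5 to 833.3 CPM with CDDO-Me. The treated wild-type group thus stood apart from the other 5 groups, and the vehicle and CDDO-Me ranges overlapped within each mutant genotype. Gstm1 and Gstm3 together carried most of the total in treated wild-type livers, with 83.8% ± 2.25 and 11.4% ± 2.58 of the level per kb (SD, n = 5).

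**Figure D1:**
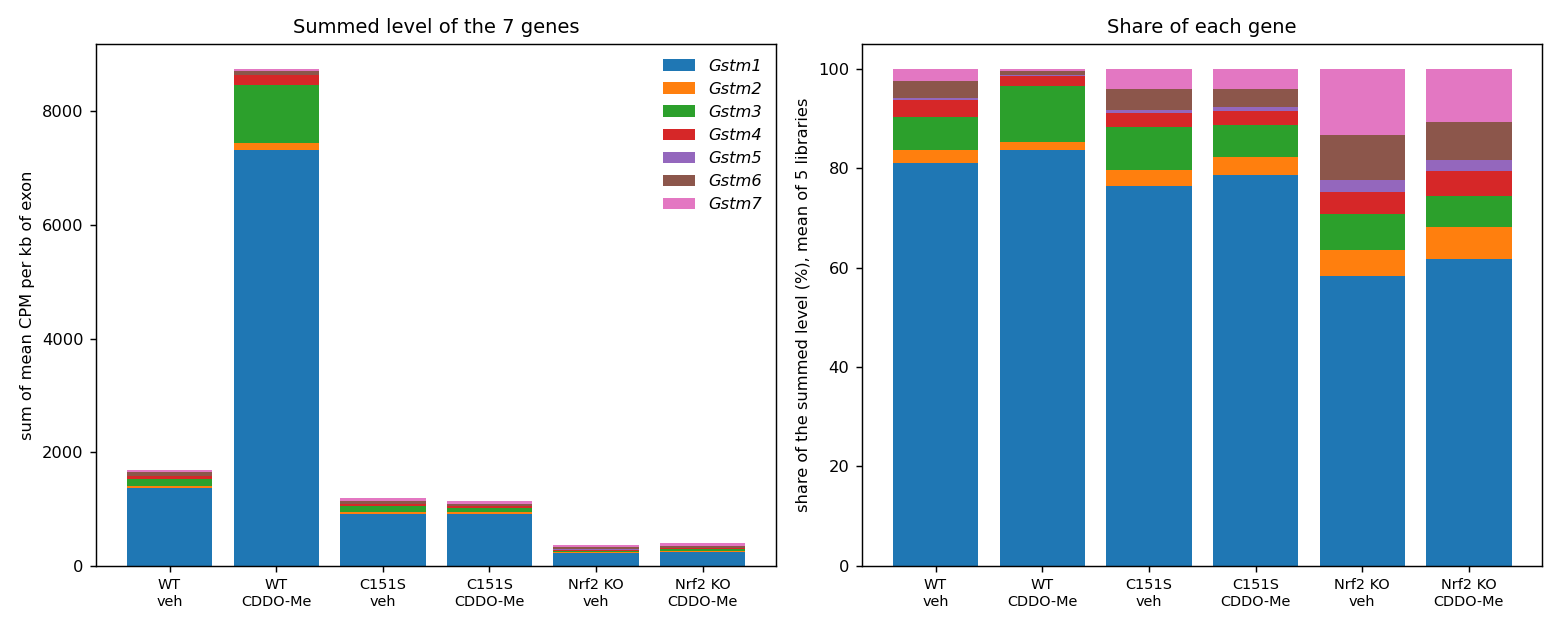
Stacked bars of the 7 Mu class genes in the 6 groups of 5 mice, with the summed mean level in CPM per kb of exon on the left and the mean share of each gene in percent on the right (veh, vehicle; KO, knockout). The summed level was 8750 CPM per kb in treated wild-type livers against 1682 in vehicle-treated ones, and the share of Gstm7 was 13.3% in vehicle-treated Nrf2-knockout livers against 2.41% in wild-type ones.

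In wild-type mice CDDO-Me raised Gstm1, Gstm2, Gstm3, and Gstm4, and the other 3 members were not called. A gene was called when its false discovery rate (FDR, Benjamini-Hochberg over all genes tested) was under 0.05 and its log2 fold change was 0.5 or more in size. By this rule 4 of 7 members were higher, whereas 1.66% of all 13697 genes tested were. The median log2 fold change was 1.45 over the 7 members and -0.007 over all genes. The 4 calls held in all 17 alternative fits, including each fit that left out 1 mouse. For these 4 the treated and vehicle-treated groups did not overlap, as for 3.14% of the 15010 genes expressed over all libraries in this direction. Of the marker lists, the summed hepatocyte markers had medians of 101000 and 80300 CPM and the pericentral markers of 8820 and 9520 CPM in vehicle-treated and treated mice, and the neutrophil markers of 1.15 and 2.54 CPM. Single markers called higher were the cytochrome P450 Cyp1a2, 1 of 6 pericentral markers, and S100a8, 1 of 2 tested neutrophil markers. The median log2 fold changes of these 2 lists were 0.046 and 1.28. The part of such shifts in the result was not tested.

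Gstm1, the main hepatic Mu class enzyme, had 2160, 2703, 1663, 1879, and 1631 CPM in the 5 vehicle-treated wild-type mice and 10130, 8891, 10710, 10660, and 13480 CPM in the 5 treated ones. All treated mice lay above all vehicle-treated ones. The log2 fold change was 2.42 (SE 0.16, FDR 5.08e-06, edgeR's quasi-likelihood F-test), from a mean of 2007 ± 443 to 10770 ± 1682 CPM (SD, n = 5).

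Gstm3, which is the nearest relative of Gstm1 in coding sequence, had the largest change of the 7. It had 164, 269, 92.3, 127, and 95.7 CPM with vehicle and 1301, 872.9, 1151, 1068, and 2327 CPM after CDDO-Me. Replicate 5 of the treated mice was highest in Gstm1, Gstm3, and Gstm4. The groups did not overlap, and the log2 fold change of Gstm3 was 3.16 (SE 0.34, FDR 0.000230, edgeR), with a range of 2.87 to 3.48 over the alternatives.

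Gstm4 had the smallest SD relative to its mean among the 4 called members in both wild-type groups. It rose from 110, 98.4, 94.8, 98.3, and 84.5 CPM to 319, 285, 275, 289, and 335 CPM. With no overlap of the groups, its log2 fold change of 1.62 (SE 0.086, FDR 2.08e-06, edgeR) was the most precisely measured of the 4.

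Gstm2 had 76.2, 90.6, 60.4, 86.0, and 57.8 CPM with vehicle and 301, 196, 178, 161, and 182 CPM after CDDO-Me. Replicate 1 of the treated mice stood above the other 4, which still lay above every vehicle-treated mouse. The log2 fold change was 1.45 (SE 0.18, FDR 0.000580, edgeR) and 1.27 in the lowest of the alternatives.

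Gstm6, Gstm5, and Gstm7 were not called in wild-type mice. The log2 fold change of Gstm6 was 0.28 (SE 0.092, FDR 0.126, edgeR; 95% interval 0.075 to 0.48), with 98.0 to 134.7 CPM in vehicle-treated and 124.3 to 151.2 CPM in treated mice. That of Gstm5 was 0.15 (interval -0.074 to 0.37, FDR 0.521), with 8.69 to 11.4 and 9.44 to 11.98 CPM. That of Gstm7 was -0.19 (interval -0.41 to 0.031, FDR 0.381), with 57.6 to 81.8 and 51.1 to 62.6 CPM. The vehicle-treated and treated ranges overlapped for all 3, and the upper bound of each interval lay below the lower bound of each of the 4 called members.

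**Figure D2:**
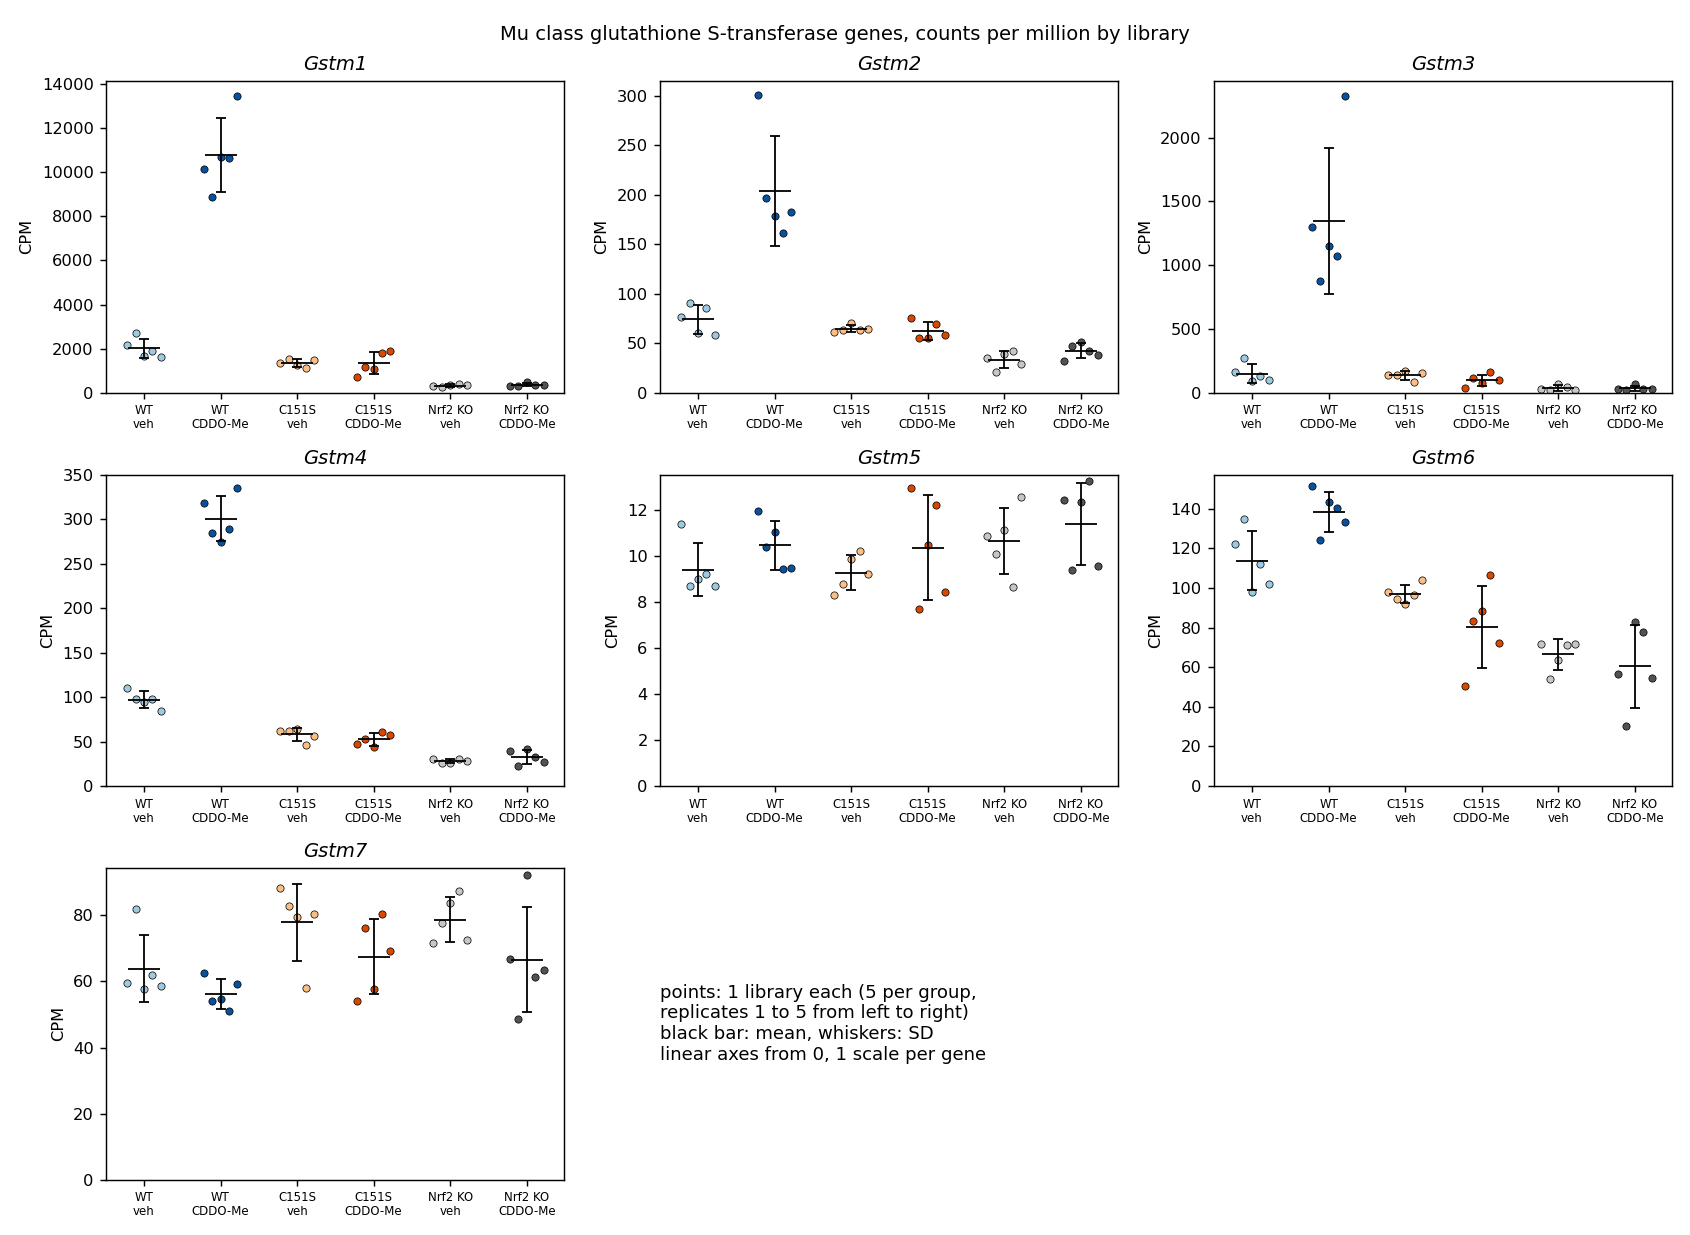
Level of each Mu class gene in CPM in the 30 libraries, with 1 point per mouse, a bar for the mean, and whiskers for the SD of 5 mice (linear axes from 0, with a scale of its own for each gene). Treated wild-type mice (WT CDDO-Me) stand apart in Gstm1, Gstm2, Gstm3, and Gstm4 and overlap with vehicle-treated wild-type mice in Gstm5, Gstm6, and Gstm7.

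In C151S mice 0 of the 7 members were called after CDDO-Me, with 0.092% of 14128 genes called in either direction. At an unadjusted p under 0.05, 1942 of the 14128 genes tested passed, and 0 of the 7 members did. A set of 7 genes is too small for this count to set it apart from the other genes. Gstm1 had 1339, 1530, 1259, 1111, and 1472 CPM with vehicle and 712.1, 1183, 1083, 1795, and 1893 CPM after CDDO-Me, and the treated mice spread on both sides of the vehicle-treated ones. Its log2 fold change was -0.018 (95% interval -0.54 to 0.51, FDR 0.980, edgeR). Gstm3 had the lowest estimate, -0.50 (interval -1.21 to 0.21, FDR 0.486), with 81.7 to 172.6 CPM with vehicle and 38.5 to 159.2 CPM after CDDO-Me. The estimates of Gstm2, Gstm4, Gstm5, Gstm6, and Gstm7 lay between -0.28 and 0.15. Within the libraries high in Arntl, 2 treated against 3 vehicle-treated, the difference in mean log2 CPM was -0.58 for Gstm1 and -1.16 for Gstm3, and within those low in Arntl, 3 against 2, it was 0.27 and -0.091.

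In Nrf2-knockout mice 0 of the 7 members were called after CDDO-Me, where 0% of 14474 genes were. The count therefore does not set the members apart from the other genes. At an unadjusted p under 0.05, 1136 of the 14474 genes passed, and the lowest p of the members was 0.103, for Gstm2 (edgeR). DESeq2 called 55 genes, none of them a Mu class member. Gstm1 had 288, 251, 333, 375, and 358 CPM with vehicle and 320, 283, 482, 356, and 337 CPM after CDDO-Me, with overlapping groups and a log2 fold change of 0.14 (95% interval -0.23 to 0.50, FDR 0.855, edgeR). The highest estimate was that of Gstm2, 0.33 (interval -0.079 to 0.75, FDR 0.694), and the lowest that of Gstm7, -0.25 (interval -0.59 to 0.082). The interval of Gstm3, from -1.04 to 0.81, was the widest, although each Nrf2-knockout library held 607 to 3295 of its counts. In both treatments, replicate 3 had the highest level of Gstm3 in the Nrf2-knockout group, with 71.6 and 71.3 CPM. The difference in mean log2 CPM of Gstm1 was -0.25 within the libraries high in Arntl, 2 against 2, and 0.40 within those low in it, 3 against 3.

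**Figure D3:**
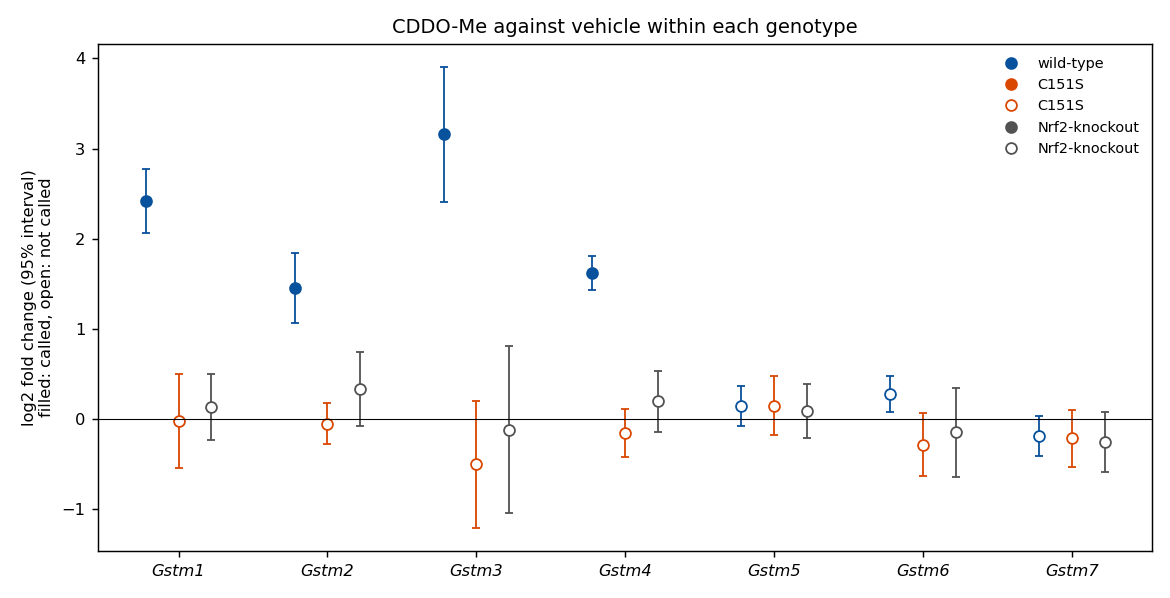
Log2 fold change of CDDO-Me against vehicle for the 7 genes in the 3 genotypes, with 95% intervals from edgeR (filled points were called, open points were not). The 4 filled points are those of Gstm1, Gstm2, Gstm3, and Gstm4 in wild-type mice, between 1.45 and 3.16, and the estimates in both mutant genotypes lie between -0.50 and 0.33.

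The difference between the responses was tested itself, as a contrast in 1 fit of all 30 libraries at an FDR under 0.05. Compared with C151S mice, the response of wild-type mice was larger in 4 of 7 members, where 0.386% of 15010 genes were called in that direction. The differences in log2 fold change were 2.43 (SE 0.29, FDR 7.85e-06) for Gstm1, 1.5 (SE 0.24, FDR 0.000977) for Gstm2, 3.66 (SE 0.57, FDR 0.000581) for Gstm3, and 1.77 (SE 0.18, FDR 4.65e-07) for Gstm4, and these 4 held in all 37 alternative fits. Gstm6 had a difference of 0.56 (SE 0.25, FDR 0.575) and was not called. The same wild-type libraries entered the contrast with Nrf2-knockout mice, where 4 of 7 members and 0.24% of all genes were called higher. The differences there were 2.28 (SE 0.29, FDR 2.58e-05) for Gstm1, 3.27 (SE 0.57, FDR 0.00385) for Gstm3, 1.42 (SE 0.18, FDR 2.58e-05) for Gstm4, and 1.11 (SE 0.24, FDR 0.0387) for Gstm2. The call of Gstm2 held in 22 of 37 alternative fits and was lost with FDR up to 0.107 without wild-type vehicle replicate 1, 3, or 5, wild-type CDDO-Me replicate 1 or 2, C151S vehicle replicate 1 or 2, C151S CDDO-Me replicate 5, Nrf2-knockout vehicle replicate 1, 3, or 4, or Nrf2-knockout CDDO-Me replicate 1, 4, or 5. It was also lost with the replicate number as a block, with FDR 0.109. Between C151S and Nrf2-knockout mice, 0 of 7 members and 0.0133% of all genes were called for a difference in response. An unadjusted p under 0.05 was found for 739 of the 15010 genes and for 0 of the 7 members, too few genes for this count to set them apart. DESeq2 called 3 genes in that contrast, none of them a member. The intervals of the members between these 2 genotypes were widest for Gstm3, from -1.53 to 0.75, and for Gstm4 ran from -0.71 to 0.017.

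Without treatment, 5 of the 7 members were lower in Nrf2-knockout than in wild-type livers, and 4.13% of 14030 genes were called in that direction. Gstm1 was 321 ± 51.0 CPM (SD, n = 5) in Nrf2-knockout livers, 0.16 of the wild-type mean, with a log2 fold change of -2.62 (SE 0.17, FDR 6.95e-06, edgeR). Gstm3 fell by 2.01 (SE 0.40, FDR 0.00820), Gstm4 by 1.76 (SE 0.093, FDR 1.32e-06), Gstm2 by 1.14 (SE 0.19, FDR 0.00366), and Gstm6 by 0.76 (SE 0.11, FDR 0.00182) on the log2 scale. The ranges did not overlap for these 5, which held in this direction for 6.86% of the 15010 genes expressed over all libraries. Gstm4, for example, had 84.5 to 110 CPM in wild-type and 25.5 to 31.0 CPM in Nrf2-knockout mice. The calls held in all 18 alternative fits, and within the libraries high in Arntl, 2 Nrf2-knockout against 5 wild-type, the difference in mean log2 CPM was -2.43 for Gstm1, -1.08 for Gstm2, -2.22 for Gstm3, -1.70 for Gstm4, and -0.66 for Gstm6. Gstm7 had an estimate of 0.32 (95% interval 0.077 to 0.57, FDR 0.0687) and Gstm5 of 0.20 (FDR 0.245). In the same comparison 3 of 5 markers of sinusoidal endothelium were called higher, whereas 6.29% of all 14030 genes were. The summed medians of these 5 markers were 232 CPM in Nrf2-knockout and 158 CPM in wild-type livers. Both tested neutrophil markers, S100a8 (2.22, FDR 0.0200) and S100a9 (1.78, FDR 0.0321), were called higher, and 1 of 6 pericentral markers, Oat (-0.92, FDR 0.0209), was called lower. The part of these shifts in the result was not tested.

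In vehicle-treated C151S mice, mean levels lay between those of the other genotypes for every member but Gstm5. Compared with wild-type mice, 2 of 7 members were called lower, whereas 2.25% of 13946 genes were. Gstm2 (-0.19, FDR 0.358), Gstm3 (-0.12, FDR 0.834), Gstm6 (-0.22, FDR 0.158), and Gstm7 (0.30, FDR 0.173, edgeR) overlapped with wild-type mice and were not called. Gstm4 had 61.4, 62.0, 64.0, 46.7, and 56.1 CPM in C151S mice, all below the lowest wild-type mouse, and its log2 fold change was -0.73 (SE 0.11, FDR 0.00307, edgeR), with -0.63 within the libraries high in Arntl. Gstm1 was 0.669 of the wild-type mean, at 1342 ± 168 CPM (SD, n = 5), with a log2 fold change of -0.57 (SE 0.15, FDR 0.0420). Every C151S mouse lay below every wild-type mouse for Gstm1, although by a narrow gap, 1530 against 1631 CPM. Lower levels without overlap, as in Gstm1 and Gstm4, were found for 5.33% of the 15010 genes expressed over all libraries. The call of Gstm1 held in 8 of 18 alternative fits. It was lost, with FDR 0.0514 to 0.0864, without C151S vehicle replicate 1, 2, 3, or 5 or wild-type vehicle replicate 1, 2, or 4, and with FDR 0.0662 under upper-quartile normalization, 0.0955 in the fit of all 30 libraries, and 0.0526 with the Arntl set as a covariate. The call of Gstm4 held in all 18. The summed level of pericentral hepatocyte markers (Glul, Cyp2e1, Cyp1a2, Oat, Slc1a2, and Axin2) had a median of 8820 CPM in vehicle-treated wild-type livers (range 6200 to 9480), of 5590 CPM in those of C151S mice (4030 to 12100), and of 4430 CPM in those of Nrf2-knockout mice (3720 to 9580). Of all 13946 genes, 2.59% were called higher in C151S than in wild-type mice and 2.25% lower, and 0 of these 6 markers were called. Higher in C151S mice were 2 of 5 stellate cell markers, Rgs5 (1.06, FDR 0.0182) and Hhip (1.10, FDR 0.0175), and 1 of 5 periportal markers, Sds (1.06, FDR 0.0448). The part of these shifts in the levels of the Mu class genes was not tested.

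Between the 2 mutant genotypes given vehicle, 5 of 7 members were higher in C151S mice, whereas 0.307% of 14323 genes were. Gstm1 was 4.18 times and Gstm4 2.05 times the Nrf2-knockout mean, with log2 fold changes of 2.06 (SE 0.14, FDR 0.000112, edgeR) and 1.04 (SE 0.11, FDR 0.00145), and both calls held with each mouse left out, although with the replicate number as a block the FDR of Gstm4 was 0.0584. Those of Gstm2, 0.95 (SE 0.16, FDR 0.0363), Gstm3, 1.90 (SE 0.35, FDR 0.0489), and Gstm6, 0.55 (SE 0.094, FDR 0.0363), did not. The groups did not overlap for these 5, as for 1.53% of the 15010 expressed genes in this direction. Gstm2 lost its call without any 1 of the C151S vehicle replicates or without Nrf2-knockout vehicle replicate 1, 3, or 5, with FDR up to 0.0965. Gstm3 lost it without C151S vehicle replicate 1, 2, 3, or 5 or Nrf2-knockout vehicle replicate 1, 2, 4, or 5, with FDR up to 0.138. Gstm6 lost it without any 1 of the C151S vehicle replicates or without Nrf2-knockout vehicle replicate 1, 2, 3, or 5, with FDR up to 0.102. Leaving out 1 mouse also lowers the number of samples in the fit. Within the libraries high in Arntl, 3 against 2, the difference in mean log2 CPM was 1.91 for Gstm1 and 1.07 for Gstm4, and within those low in it, 2 against 3, it was 2.15 and 0.91. Gstm5 and Gstm7 differed by -0.20 (95% interval -0.44 to 0.039) and -0.014 (interval -0.28 to 0.25).

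After CDDO-Me, 5 of 7 members were higher in wild-type than in C151S mice, whereas 2.8% of 13844 genes were. The log2 fold changes were 3.77 (SE 0.39, FDR 0.000213, edgeR) for Gstm3, 2.997 (SE 0.27, FDR 7.24e-05) for Gstm1, 2.49 (SE 0.11, FDR 9.34e-07) for Gstm4, 1.69 (SE 0.17, FDR 0.000205) for Gstm2, and 0.77 (SE 0.16, FDR 0.0179) for Gstm6, and the groups did not overlap. Such a lack of overlap in this direction was found for 4.7% of the 15010 genes expressed over all libraries. Gstm6, which was not called within either genotype, had 124.3 to 151.2 CPM in treated wild-type and 50.7 to 106.6 CPM in treated C151S mice. Without wild-type CDDO-Me replicate 1 the FDR of Gstm6 was 0.0502, the highest of its 18 alternatives. Within the libraries high in Arntl, 5 wild-type against 2 C151S, the difference in mean log2 CPM was 3.54 for Gstm1, 1.63 for Gstm2, 4.26 for Gstm3, 2.58 for Gstm4, and 1.09 for Gstm6. Compared with treated Nrf2-knockout mice, 5 of 7 members were higher in treated wild-type mice, whereas 4.85% of 13935 genes were. The same treated wild-type libraries gave log2 fold changes of 5.28 (SE 0.43, FDR 1.17e-05) for Gstm3, 4.90 (SE 0.20, FDR 2.86e-08) for Gstm1, 3.18 (SE 0.16, FDR 2.04e-07) for Gstm4, 2.25 (SE 0.19, FDR 1.24e-05) for Gstm2, and 1.18 (SE 0.22, FDR 0.00469) for Gstm6. Cell type markers differed between the treated genotypes too. Compared with C151S mice, 1 of 6 pericentral markers, Cyp1a2 (1.55, FDR 0.00791), was higher in wild-type mice, with a list median log2 fold change of 0.153. So was 1 of 5 Kupffer cell markers, the receptor Marco (1.13, FDR 0.0345), but with a list median of -0.103. Lower were 1 of 5 periportal markers, Sds (-1.52, FDR 0.0236), and 1 of 5 hepatocyte markers, Tat (-1.06, FDR 0.0310), whereas 2.2% of all 13844 genes were. The medians of these 2 lists were -0.718 and -0.273. Compared with Nrf2-knockout mice, Cyp1a2 (1.95, FDR 0.00642) and Marco (2.14, FDR 0.00256) were higher, again 1 of 6 and 1 of 5 of their lists. The list medians were 0.679 and 0.0523. Lower were 2 of 5 periportal markers, Sds (-1.31, FDR 0.00954) and Gls2 (-0.66, FDR 0.0454), whereas 4.59% of all 13935 genes were. The median of the periportal list was -0.661. Of the 5 stellate cell markers, 1 was lower, Rgs5 (-1.15, FDR 0.0163), with a list median of -0.394. The summed pericentral markers had a median of 9520 CPM in treated wild-type livers, against 7100 CPM in those of C151S mice and 3580 CPM in those of Nrf2-knockout mice, and the part of these shifts in the result was not tested. In CPM, treated wild-type livers had 39.5 times the Gstm3 and 30.3 times the Gstm1 of treated Nrf2-knockout livers.

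Between treated C151S and Nrf2-knockout mice, 1 of 7 members was higher in C151S mice, whereas 0.127% of 14186 genes were. This was Gstm1, with 712.1 to 1893 CPM against 282.5 to 481.8 CPM and a log2 fold change of 1.91 (SE 0.27, FDR 0.0166, edgeR). Its call was lost without Nrf2-knockout CDDO-Me replicate 1, 4, or 5, with FDR 0.0515 to 0.0592. Gstm3, Gstm4, and Gstm2 had estimates of 1.51 (95% interval 0.61 to 2.41), 0.69 (interval 0.33 to 1.04), and 0.56 (interval 0.25 to 0.88) with FDR 0.321, 0.224, and 0.271, and DESeq2 called all 3. Gstm1, Gstm2, and Gstm4 did not overlap between these groups, as 0.893% of the 15010 expressed genes did not in this direction.

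**Figure D4:**
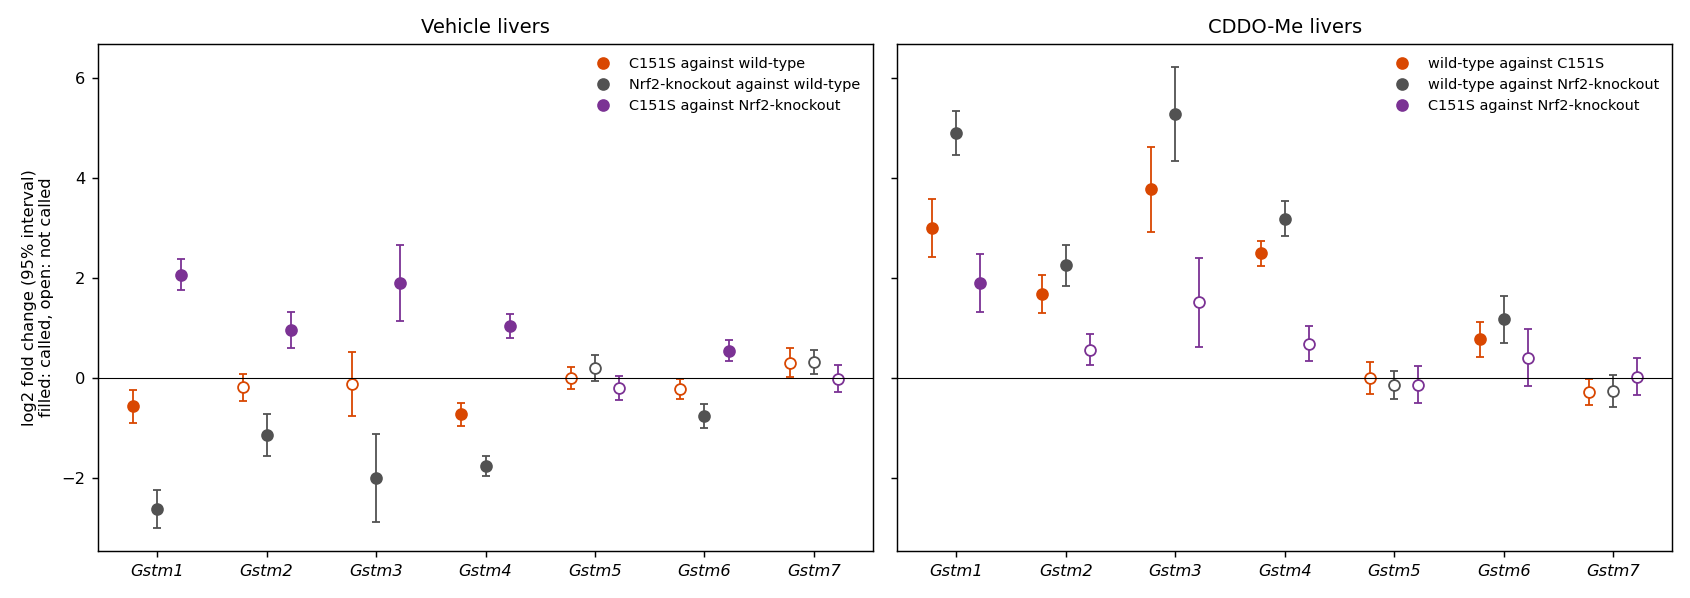
Log2 fold change between genotypes for the 7 genes in vehicle-treated livers on the left and CDDO-Me-treated livers on the right, with 95% intervals from edgeR (filled points were called, open points were not). Gstm1 to Gstm4 and Gstm6 are lower in vehicle-treated Nrf2-knockout than wild-type livers, between -2.62 and -0.76, and these 5 are higher in treated wild-type than in treated mutant livers, while all points of Gstm5 and Gstm7 are open.

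Along the chromosome, the 4 genes called in wild-type mice lie side by side, Gstm3, Gstm2, Gstm1, and Gstm4, and the 3 that were not called, Gstm5, Gstm7, and Gstm6, lie together at the low end. Within 50000 bases on either side of the cluster GENCODE lists 17 other genes and pseudogenes, of which 5 passed the filter in at least 1 comparison. Gm12498, a long noncoding RNA on the minus strand (ENSMUSG00000087357.1, chromosome 3, 108018294 to 108025249), lies just before the start of Gstm1, on the same strand. It had 0.483, 0.378, 0.42, 0.189, and 0.106 CPM in vehicle-treated wild-type mice and 4.78, 4.33, 5.26, 5.37, and 5.01 CPM after CDDO-Me. With 3 to 16 and 122 to 183 counts per library, the groups did not overlap, and its log2 fold change was 3.96 (SE 0.26, FDR 5.07e-06, edgeR). It had 1 to 16 counts in C151S and 0 to 4 counts in Nrf2-knockout libraries, and the difference between the wild-type and C151S responses was 4.99 (SE 0.75, FDR 0.000341). Compared with Nrf2-knockout mice, the difference was 2.44 (SE 1.60, FDR 0.905) on counts of at most 4 in the latter. Whether reads of Gm12498 belong to longer transcripts of Gstm1 was not tested.

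Ampd2, which encodes an AMP deaminase, Gnat2, which encodes the transducin of cone cells, the antisense RNA Gm12500, and 4933431E20Rik, which runs antisense over the start of Gstm5, were not called in wild-type mice. Their log2 fold changes were -0.033, -0.25, -0.41, and 0.19, with FDR 0.917, 0.753, 0.450, and 0.675. The 12 remaining neighbours, among them Eps8l3 with 0 to 2 counts, had at most 7 counts in any library.

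**Figure D5:**
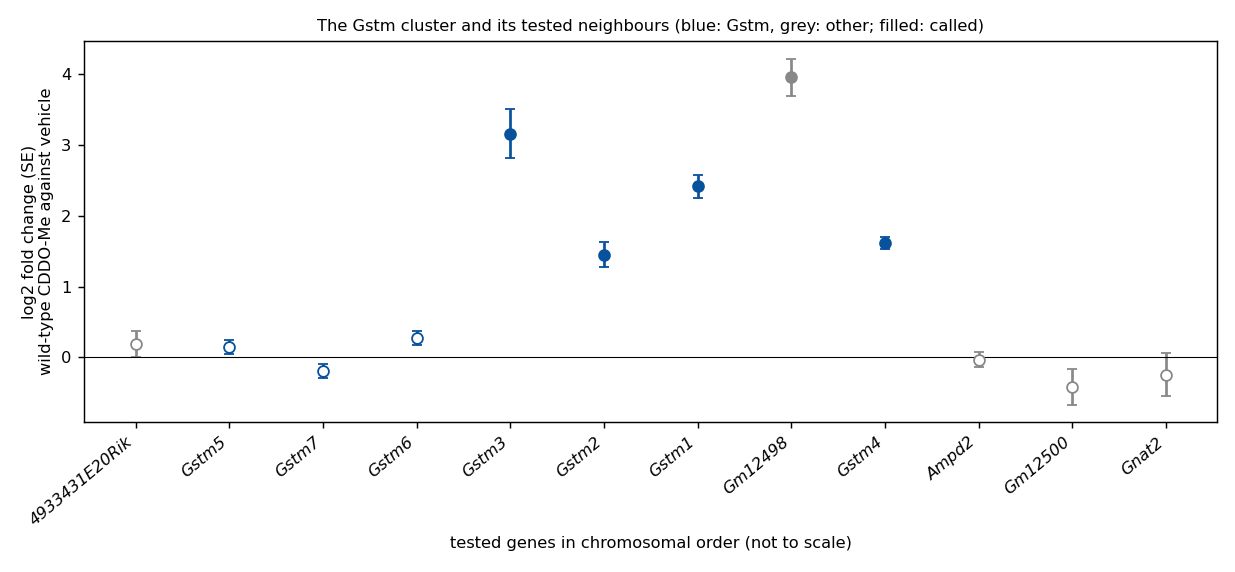
Log2 fold change of treated against vehicle-treated wild-type livers, with SE, for the 7 Gstm genes (blue) and the 5 tested neighbours (grey), in their order along chromosome 3 and not to scale (filled points were called). The filled points form 1 block from Gstm3 to Gstm4, which holds Gm12498, and the points on both sides of it lie between -0.41 and 0.28.

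Gstm2-ps1, a processed pseudogene on chromosome 5 (ENSMUSG00000107369.1, 116632908 to 116633564) that shares 50-base stretches with Gstm1 and Gstm3, was 1.22 ± 0.42 CPM (SD, n = 5) in vehicle-treated and 6.21 ± 0.60 CPM in treated wild-type mice, with a log2 fold change of 2.35 (SE 0.20, FDR 2.80e-05, edgeR). Its level followed that of Gstm1, and whether its reads came from the pseudogene or from Gstm1 or Gstm3 was not tested.

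The genes whose 6 group means were most like those of each member were found over all 15010 genes that passed the filter, by the root mean square (RMS) difference of mean log2 CPM after each gene was centred on its own mean. For Gstm1 these were Gstm2-ps1 (RMS difference 0.163), the quinone reductase Nqo1 (0.325), and Mirt2 (0.382), and for Gstm3 they were Gstm2-ps1 (0.306), Nqo1 (0.324), and Gm12498 (0.40). Gstm4 was most like Gm43311 (0.038), the UDP-glucose dehydrogenase Ugdh (0.161), and the glutamate-cysteine ligase subunit Gclc (0.217), and Gm43311 lies directly beside Ugdh on chromosome 5. Gstm2 was most like Htatip2 (0.105), the nucleoside diphosphatase Entpd5 (0.13), and the adenosine receptor Adora1 (0.136). Gstm6 was most like the organic anion transporter Slc22a30 (0.037), the aldehyde dehydrogenase Aldh1a7 (0.067), and Gm37123 (0.079). Gstm5 was most like Uqcc3 (0.021), Rmc1 (0.031), and Crtap (0.033), and Gstm7 was most like the endothelial receptor Kdr (0.017), Smpdl3b (0.035), and Alb, which encodes albumin (0.037). A member with small differences between groups is close to many genes by this measure. Among the members themselves Gstm5 and Gstm7 (0.21) and Gstm1 and Gstm3 (0.283) were the most alike, and Gstm3 and Gstm7 (1.91) the least.

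Other glutathione transferases were compared with the Mu class in the same fits. Of 16 cytosolic transferases of the other classes, 13 were tested in wild-type mice, and 5 of these were higher after CDDO-Me and 0 lower, beside the 1.66% of all genes called higher, with a median log2 fold change of 0.34 over the 13. The Alpha class genes Gsta1, Gsta2, and Gsta3, whose enzymes reduce lipid hydroperoxides, changed by 3.75 (SE 0.56, FDR 0.00240), 2.04 (SE 0.32, FDR 0.00324), and 0.53 (SE 0.072, FDR 0.00102, edgeR). The Pi class gene Gstp1 changed by 0.74 (SE 0.092, FDR 0.000619), and Gstp2, named here although it was outside the 4 lowest p values, by 1.90 (SE 0.46, FDR 0.0345). Gsta1 and Gsta2, and Gstp1 and Gstp2, are pairs of near-identical genes, so the division of counts within each pair is uncertain. Of the mitochondrial and microsomal transferases, 3 of 4 were tested and 1 was called, Mgst3, with 1.14 (SE 0.13, FDR 0.000266), while Mgst1 had 0.27 (FDR 0.223) and Gstk1 -0.15 (FDR 0.495).

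Genes that supply glutathione and remove its conjugates were read against the same 1.66%. Of 5 genes of glutathione synthesis and recycling, 4 were tested and 3 were higher, Gclc with 1.37 (SE 0.17, FDR 0.000586) and Gclm with 0.74 (SE 0.076, FDR 0.000157), the subunits of the rate-limiting ligase, and the glutathione reductase Gsr with 0.85 (SE 0.11, FDR 0.000697, edgeR). Gss, the glutathione synthetase, had 0.60 with FDR 0.0563. Of 12 genes of mercapturate formation and conjugate export, 9 were tested and 4 were higher, the export pumps Abcc4 with 1.94 (SE 0.27, FDR 0.00143), Abcc3 with 0.98 (SE 0.13, FDR 0.000935), and Abcc2 with 0.73 (SE 0.12, FDR 0.00366), and the gamma-glutamyl transferase family gene Ggt5 with 0.76 (SE 0.20, FDR 0.0481). Within C151S mice, where 0.092% of 14128 genes were called, and within Nrf2-knockout mice, where 0% of 14474 were, 0 tested genes of these 4 lists were called. At such shares this count does not set the lists apart from the other genes. In vehicle-treated Nrf2-knockout compared with wild-type mice, 7 of 13 other cytosolic transferases were lower and 0 higher, beside the 4.13% of all genes called lower, with a median log2 fold change of -1.02, as against -1.14 over the 7 Mu class genes and 0.009 over all genes.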

How the data were processed

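RNA-seq libraries were prepared with a stranded poly(A) kit and sequenced as paired 50-base reads. As deposited, the authors' table held raw counts per gene, which they made by aligning reads to mm10 with STAR 2.7.7 and counting reads of 1 position on the annotated strand of GENCODE genes, and fastp served for read quality. All 30 libraries were used. The 4 summary rows that name no gene were left out of library sizes. Of all reads in a library they held 10.5% to 16.9% with several positions, 2.15% to 8.82% unmapped, 4.21% to 7.92% outside genes, and 1.05% to 1.36% in more than 1 gene.

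Counts were tested with edgeR 4.0.16 in R 4.3.3 (TMM, filterByExpr, quasi-likelihood F-test in its older form) on the 10 libraries of each pair of groups, and differences between responses as contrasts in 1 fit of 30 libraries, with no threshold on size. SEs were derived from the F statistic. The date of isolation, a covariate in the study, was not used here. Scripts were tested on simulated data. Log2 CPM used a prior count of 2, and levels per kb the union exon length from GENCODE on GRCm38. Alternatives were DESeq2 1.42.0, upper-quartile normalization, the newer edgeR fit, other filters, a replicate block, all libraries in 1 fit, the Arntl set as a covariate, and leaving out each mouse. One C151S library, CDDO-Me replicate 3, has a misspelled title and was grouped by its treatment label. Replicates are separate mice.

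The members, lists, and tests were chosen with earlier results of these data known. Genes named were the 7 members, Nfe2l2, Keap1, tested genes within 50000 bases of the cluster, in each list at most the 4 lowest p in treated wild-type mice, and the 3 genes with the group means most like each member's. Arntl, Gm8834, Eps8l3, Gstp2, and the cell type markers named stand outside this rule. Intervals cover the spread between mice.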

Additional observations from a re-analysis of the deposited data

Results flagged for a closer look

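Among 42 combinations of a member and a group, 6 held a mouse whose distance from its nearest neighbour, as a share of the range of the 5 mice, exceeded 0.71, and chance alone gives about 1 in 20. For Gstm2 these were replicate 1 of treated wild-type mice, the highest (0.75), and replicate 3 of vehicle-treated C151S mice, the highest (0.727). For Gstm3 it was replicate 3 of treated Nrf2-knockout mice, the highest (0.815). For Gstm5 it was replicate 1 of vehicle-treated wild-type mice, the highest (0.799). For Gstm7 they were replicate 2 of vehicle-treated wild-type mice, the highest (0.821), and replicate 4 of vehicle-treated C151S mice, the lowest (0.713).

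The response to CDDO-Me differed between genotypes by the test of the difference itself for 4 members. Set against C151S mice, the log2 fold change of wild-type mice was larger by 2.434 for Gstm1, 1.5 for Gstm2, 3.658 for Gstm3, and 1.769 for Gstm4. Set against Nrf2-knockout mice, it was larger by 2.277 for Gstm1, 1.111 for Gstm2, 3.269 for Gstm3, and 1.42 for Gstm4.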

How the results depend on the processing

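The members called in treated wild-type mice, in vehicle-treated Nrf2-knockout against wild-type mice, in treated wild-type against Nrf2-knockout mice, and in the response of wild-type minus C151S mice were the same number in every alternative run, and 0 were called in every one within C151S mice, within Nrf2-knockout mice, and between their responses. The number called lower in vehicle-treated C151S against wild-type mice, 2, was 1 under upper-quartile normalization, in 1 fit of all 30 libraries, and with the Arntl set as a covariate, and 1 to 2 with 1 mouse left out. The 5 called between vehicle-treated C151S and Nrf2-knockout mice were 2 under upper-quartile normalization and 2 to 4 with 1 mouse left out. Of the 18 alternative fits of that comparison, the call of Gstm2 held in 8, that of Gstm3 in 6, and that of Gstm6 in 6. The 1 called between treated C151S and Nrf2-knockout mice became 4 with DESeq2, 2 in the fit of all libraries, and 0 to 1 with 1 mouse left out. With 1 mouse left out, 4 to 5 members were called between treated wild-type and C151S mice, and 3 to 4 in the response of wild-type minus Nrf2-knockout mice. The cause of these changes was not tested.

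The replicate block left 1 member between vehicle-treated C151S and Nrf2-knockout mice and 0 between treated ones, and Gstm2 lost its call in the response of wild-type minus Nrf2-knockout mice (FDR 0.109). The deviations of mice of the same number had a mean correlation of -0.193 to 0.188 across the 9 comparisons, highest in Nrf2-knockout mice (0.188, against -0.046 for other numbers) and between treated wild-type and C151S mice (0.149 against -0.039), with 3 of 5 numbers closest to their own in both. The lowest pair of each comparison had -0.374 to 0.017, and in 0 of 9 did every library correlate best with its own number, so the numbers were not taken to pair mice.

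Estimates near 0 that were not called changed sign. For Gstm5 in vehicle-treated C151S against wild-type mice they were 0.00436 with DESeq2, 0.0451 under upper-quartile normalization, 0.0118 with at least 10 counts in every library, and 0.00146 with the replicate block. For Gstm5 in treated wild-type against C151S mice they were 0.00144 with DESeq2, 0.0126 with no filter, 0.00851 with at least 10 counts, 0.0175 with the block, and 0.0153 in the fit of all libraries. For Gstm5 in the response of wild-type minus C151S mice they were 0.00314 with DESeq2, 0.0283 under upper-quartile normalization, 0.0102 with at least 10 counts, 0.0233 with the block, and 0.0240 with the Arntl covariate. With that covariate Gstm3 was 0.0171 in vehicle-treated C151S against wild-type mice and Gstm5 0.114 in treated wild-type against Nrf2-knockout mice, and Gstm7 was -0.0153 under upper-quartile normalization in treated C151S against Nrf2-knockout mice.

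With 1 mouse left out, the response to CDDO-Me ranged from -0.174 to 0.136 for Gstm1 in C151S mice, and from -0.566 to 0.290 for Gstm3 and -0.271 to 0.0293 for Gstm6 in Nrf2-knockout mice. Between vehicle-treated C151S and wild-type mice Gstm3 ranged from -0.251 to 0.212 and Gstm5 from -0.0342 to 0.0752, and against Nrf2-knockout mice Gstm7 from -0.0561 to 0.0677. In treated mice Gstm5 ranged from -0.0782 to 0.0933 (wild-type against C151S) and Gstm7 from -0.0744 to 0.171 (C151S against Nrf2-knockout). In the response of wild-type minus C151S mice Gstm5 ranged from -0.0861 to 0.0953 and Gstm7 from -0.0423 to 0.133, and minus Nrf2-knockout mice Gstm5 from -0.00461 to 0.137 and Gstm7 from -0.0343 to 0.210. In the response of C151S minus Nrf2-knockout mice the ranges were -0.316 to 0.00144 for Gstm1, -0.788 to 0.0837 for Gstm3, -0.0365 to 0.154 for Gstm5, -0.302 to 0.0103 for Gstm6, and -0.0536 to 0.191 for Gstm7.

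Over all genes, DESeq2 called 100 genes in C151S mice where edgeR called 13, 180 against 50 between vehicle-treated and 118 against 23 between treated C151S and Nrf2-knockout mice, 1154 against 692 between treated wild-type and C151S mice, and 113 against 72 and 85 against 40 in the responses of wild-type minus C151S and minus Nrf2-knockout mice. The fit of all libraries called 147 against 377 in wild-type, 34 in C151S, and 11 against 0 in Nrf2-knockout mice, 382 against 675 between vehicle-treated C151S and wild-type mice, and 99 and 126 between vehicle-treated and between treated C151S and Nrf2-knockout mice. The Arntl covariate gave 1904 against 675 and 954 against 1462 for vehicle-treated C151S and Nrf2-knockout against wild-type mice, 89 between vehicle-treated mutants, 383 between treated wild-type and C151S mice, and 4 in C151S mice. The replicate block gave 2 in C151S mice, 9 and 8 between vehicle-treated and between treated mutants, and 23 and 1 in the responses of wild-type and of C151S minus Nrf2-knockout mice. In C151S mice upper-quartile normalization gave 7, no filter 23, and at least 10 counts 1, and between mutants no filter gave 79 with vehicle and 35 with CDDO-Me. The least abundant member, Gstm5, had 246 to 516 counts per library.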
